A study of Petunia x hybrida with 12 samples.

Results

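Terpene synthases and the enzymes that make and cyclize squalene were followed in Petunia hybrida roots with and without an arbuscular mycorrhizal (AM) fungus, in wild type plants and in plants mutated in the GRAS transcription factor RAM1. The genes were taken from the annotation that accompanies the expression tables. A gene model was included if its gene ontology column held the term for terpene synthase activity, or if its description contained amyrin synthase, cycloartenol synthase, lupeol synthase, oxidosqualene, squalene or terpene synthase. This rule gave 98 of the 32928 gene models, 84 through the ontology term, 72 through the description and 58 through both.

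Squalene synthase joins a pair of farnesyl diphosphate molecules to squalene, and squalene monooxygenase (squalene epoxidase) converts squalene to oxidosqualene. Oxidosqualene cyclases then fold this chain into a ring system: cycloartenol synthase opens the route to plant sterols of membranes, whereas beta-amyrin synthase opens the route to triterpenes such as saponins. Terpene synthases in the narrow sense act earlier, on prenyl diphosphates, and release the monoterpenes, sesquiterpenes and diterpenes of scent, resin and defence. Among them, ent-copalyl diphosphate synthase and ent-kaurene synthase provide the diterpene backbone of gibberellin hormones.

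The 12 libraries came from total RNA of roots and formed 4 groups of 3 replicate plants. Wild type plants (line W115) and ram1 mutants (ram1-2) were grown in a mixture of sand and unfertilized soil, either inoculated with Rhizophagus irregularis MUCL 43204 (mycorrhizal roots) or kept without the fungus (control roots), and roots were harvested at 15 days. Per the paper, nurse plants were used to reach comparable colonization of the genotypes. Mean colonization and the share of fungal reads were nevertheless lower in ram1. The part of fungal load in differences between the mycorrhizal groups was not tested. The mutant is represented by 1 allele, so that differences between the genotypes cannot be told apart from other differences between the lines. The labels name separate replicates but not separate experiments, and the p-values measure the spread between these plants.

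Each library held between 7152267 and 13391147 reads counted on gene models, of which 96.9 to 97.5% matched 1 gene model only. Levels are given as CPM (reads of a gene relative to the scaled size of its library) and, where genes are compared with each other, as RPKM (reads relative to the length of the transcript and the size of the library). RAM1 (Peaxi162Scf00420g00650.1) was at 117 ± 10.2 CPM (SD, n = 3) in mycorrhizal wild type and at 7.67 ± 1.40 CPM (SD, n = 3) in mycorrhizal ram1 roots, with 0.217 and 0.236 CPM in the respective controls. The phosphate transporter PT4 (Peaxi162Scf00618g00532.1), a marker of arbuscules, was at 606 CPM in mycorrhizal wild type and at 6.92 CPM in mycorrhizal ram1. All 7 Casparian strip membrane protein genes, which mark the root endodermis, had reads, and their summed level lay between 140 and 239 CPM in all 12 libraries. A summed level of 43 chlorophyll-binding and Rubisco small subunit genes, which mark green tissue, was 53.1 to 88.6 CPM in mycorrhizal wild type, against 21.5 to 28.0 CPM in its controls, 17.4 to 24.9 CPM in ram1 controls and 29.0 to 36.1 CPM in mycorrhizal ram1. Their part in the results was not tested. Of the first 4 principal components, component 4 set ram1 control replicate 3 (score 52.8) and mycorrhizal ram1 replicate 1 (score −47.2) most apart from the other libraries. On component 3 they (−4.98 and −4.44) lay between the other ram1 controls (−59.0 and −51.7) and the other mycorrhizal ram1 libraries (52.7 and 47.2). Leaving both out thus removes ram1 libraries that lie between the groups, which favours calls of a ram1 response. Results that rest on them are given with and without them, and calls gained only without them are not separate evidence.

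Of the 98 gene models, 59 reached a mean of 10 reads in at least 1 group and were tested, whereas 39 did not. Of these 39, 25 had no read in any library and the other 14 had at most 55 reads over all 12 libraries. The tested gene models had a median transcript length of 1773 bases and those not tested one of 801 bases. Placed in classes by their descriptions, 35 of the 98 were sesquiterpene synthases (18 tested), 21 diterpene synthases (18 tested), 7 oxidosqualene cyclases (all 7 tested), 4 squalene synthases (3 tested), 3 squalene monooxygenases (all 3 tested), 2 monoterpene synthases (1 tested) and 26 other terpene synthases (9 tested). The descriptions terpene synthase 21 (28 models, put with sesquiterpene synthases) and terpene synthase 04 (7 models, put with diterpene synthases) state no product. Others that state none, such as terpene synthase 02, 03 and 10, were left with the other terpene synthases. The classes are thus not tested activities. Protein domain entries added a further view, since 74 carried a terpenoid synthase domain, 72 a terpenoid cyclase or prenyltransferase fold and 61 both.

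For each gene it was asked how it responded to the fungus in each genotype, whether these responses differed (the interaction), and whether the genotypes differed in control or in mycorrhizal roots. Tests were made with the quasi-likelihood test of edgeR, with adjustment by Benjamini-Hochberg over all 22954 genes tested, and a gene was called at an adjusted p under 0.05. In wild type roots, 4 of the 59 tested members rose and 5 fell upon mycorrhization, against a background of 21.7% of all genes called (12.6% higher and 9.14% lower). In ram1, 2 rose and 6 fell against a background of 10.1% (4.91% higher and 5.17% lower). The interaction was called for 5 members, 2 of them positive and 3 negative, against 9.19% of all genes (4.03% and 5.17%). Both responses were called in 2 members, 7 were called only in the wild type test and 6 only in the ram1 test. The shares of all genes with these patterns are not given, so the counts are not read as a result about the members. Over the 59 members the wild type response had a median log2 fold change of −0.21 (−0.0021 over all genes tested), with 25 members positive. For ram1 the median was −0.33 (0.05 over all genes tested), with 20 members positive. Without the 2 libraries that stood apart, 58 members were tested. Of these, 17 were called in the wild type response, 25 in the ram1 response and 17 in the interaction, and all genes were called at 25.6%, 24.8% and 18.5%. That fit left 2 libraries in each ram1 group. The wild type counts are the same in both fits, but the estimate of the spread, which is shared over the groups, differs.

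Between the genotypes, 17 members were higher and 8 lower in ram1 control roots than in wild type control roots, with 36.3% of all genes called (18.8% higher and 17.5% lower). In mycorrhizal roots 20 were higher and 11 lower in ram1, with 52.7% of all genes called (26.7% higher and 25.9% lower). The members' shares, 42.4% and 52.5%, lay near these backgrounds. In both comparisons 19 members were called, 13 of them higher in ram1 in both, 5 lower in both and 1 in opposite directions. A further 19 of the 59 were called in no comparison. For these patterns too the shares of all genes are not given, and the counts are not read as a result about the members.

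**Figure D1:**
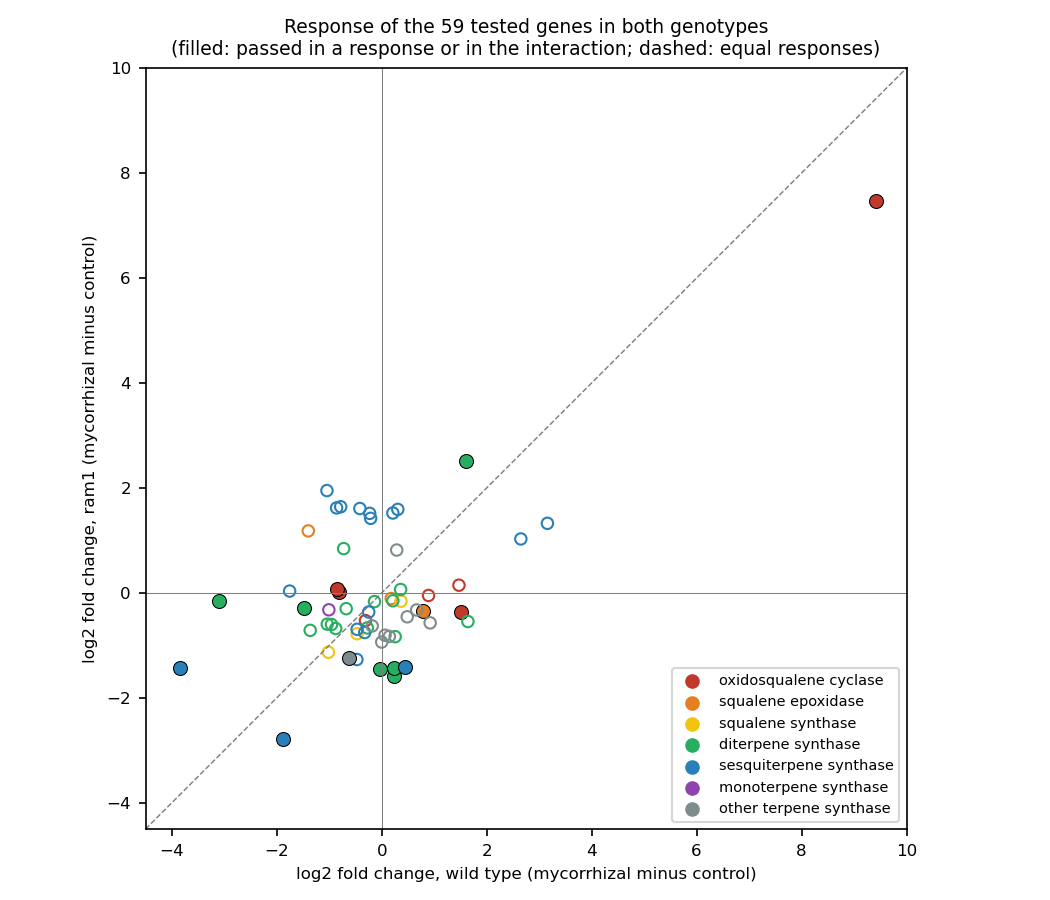
Log2 fold change (mycorrhizal against control roots) of the 59 tested members in the wild type (x axis) and in ram1 (y axis), with 1 point per gene coloured by class, filled where a response or the interaction was called, and a dashed line at equal responses. The beta-amyrin synthase Peaxi162Scf00928g00242.1 lies far to the upper right at 9.41 and 7.47, and the 5 members with a called interaction lie off the diagonal.

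Squalene synthase was represented by 3 tested genes, of which 1 was called between the genotypes. Peaxi162Scf00016g00152.1 was at 171, 199 and 166 CPM in wild type controls, 276, 264 and 152 CPM in mycorrhizal wild type, 118, 126 and 108 CPM in ram1 controls, and 99.0, 116 and 101 CPM in mycorrhizal ram1. All 6 wild type libraries were thus above all 6 ram1 libraries, whereas the wild type groups overlapped. Expression was lower in ram1 by a log2 value of −1.13 in mycorrhizal roots (SE 0.194, adjusted p = 0.000641, edgeR) and of −0.61 in controls (SE 0.192, adjusted p = 0.0289). The difference in controls did not pass without the 2 libraries that stood apart (adjusted p = 0.0872). The response of the wild type was not called (log2 0.37, adjusted p = 0.203). It was called without mycorrhizal replicate 3 (log2 0.59, adjusted p = 0.0077). That library was the lowest of its group and below all 3 controls, so leaving it out favours a rise and the call is not separate evidence. The other tested genes, Peaxi162Scf00003g04242.1 at group means between 6.17 and 27.2 CPM and Peaxi162Scf00285g00432.1 between 3.22 and 5.55 CPM, had no call. Without the 2 libraries that stood apart, however, Peaxi162Scf00003g04242.1 was called in all 5 comparisons: it was lower in mycorrhizal than in control roots of the wild type (log2 −1.02, adjusted p = 0.00618) and of ram1 (log2 −2.33, adjusted p = 0.000965), with an interaction of −1.31 (adjusted p = 0.0348), and its level was lower in the mutant, both in control (log2 −0.76, adjusted p = 0.0300) and mycorrhizal roots (log2 −2.07, adjusted p = 0.000305). The 2 libraries are ram1 libraries, so the wild type counts are the same in both fits. They were the lowest ram1 control and the highest mycorrhizal ram1 library of this gene. Leaving them out favours a fall in ram1, a negative interaction and a lower level in mycorrhizal ram1. These calls are therefore not separate evidence. The difference of Peaxi162Scf00003g04242.1 between the genotypes in mycorrhizal roots was also called by DESeq2 (log2 −1.12, adjusted p = 0.0395).

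Of the 3 squalene monooxygenases, Peaxi162Scf01161g00325.1 carried most of the reads. Its level was 89.3, 106 and 123 CPM in wild type controls, 225, 193 and 133 CPM in mycorrhizal wild type, 101, 109 and 95.7 CPM in ram1 controls, and 92.9, 74.4 and 73.0 CPM in mycorrhizal ram1. The wild type groups did not overlap, and mycorrhizal ram1 was the lowest of the 4 groups. Transcript abundance rose 1.73-fold in the wild type (log2 0.79, SE 0.187, adjusted p = 0.0114, edgeR). The interaction was −1.14 on the log2 scale (SE 0.264, adjusted p = 0.0232), and the level in mycorrhizal ram1 was below that in mycorrhizal wild type by a log2 value of −1.20 (SE 0.189, adjusted p = 0.000383). Without wild type control replicate 1 the response and the interaction did not pass (adjusted p = 0.0525 and 0.0547). Peaxi162Scf00449g00512.1 was higher in ram1 controls (19.8 against 12.7 CPM, log2 0.64, SE 0.112, adjusted p = 0.0011), and Peaxi162Scf00152g00612.1 was lower there (0.424 against 2.17 CPM, log2 −2.29, SE 0.714, adjusted p = 0.027). The call of Peaxi162Scf00152g00612.1 was lost when only the 6 control libraries were fitted (adjusted p = 0.0650) and without control replicate 2 of the wild type (adjusted p = 0.0813) or of ram1 (adjusted p = 0.0844). Without ram1 control replicate 3 its difference was −3.69 (adjusted p = 0.00557) and its interaction was called (log2 3.98, adjusted p = 0.0277). That library was the highest ram1 control of this gene, so leaving it out favours both.

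Both cycloartenol synthases were expressed, but they did not follow the same course. Peaxi162Scf00263g00924.1 was at 76.7, 98.8 and 83.0 CPM in wild type controls and at 327, 282.4 and 125 CPM in mycorrhizal wild type, while ram1 had 74.4, 91.0 and 76.1 CPM in controls and 61.4, 69.6 and 56.6 CPM in mycorrhizal roots. The 3 mycorrhizal wild type libraries were above all others, with replicate 3 closest to the controls. Expression rose 2.84-fold in the wild type (log2 1.51, SE 0.280, adjusted p = 0.0030, edgeR) and was not called in ram1 (log2 −0.36, adjusted p = 0.397). The interaction was −1.87 on the log2 scale (SE 0.393, adjusted p = 0.0147). Without mycorrhizal wild type replicate 3 it was −2.19 (adjusted p = 0.000258), but leaving out the lowest of the group favours a larger value. In mycorrhizal roots ram1 was lower by a log2 value of −1.97 (SE 0.285, adjusted p = 0.000216).

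The second cycloartenol synthase, Peaxi162Scf00954g00115.1, had no call in any comparison. Its values were 290.3, 462 and 441 CPM in wild type controls, 297, 304 and 362 CPM in mycorrhizal wild type, 428, 374 and 227 CPM in ram1 controls, and 226, 238 and 248 CPM in mycorrhizal ram1. The ram1 groups overlapped through control replicate 3, and without the 2 libraries that stood apart the gene was called lower in mycorrhizal than in control ram1 roots (log2 −0.72, adjusted p = 0.034). The control left out was the lowest of its group, which favours this call. On the RPKM scale, the sum of both cycloartenol synthases was 224 ± 47.0 in wild type controls, 261 ± 25.0 in mycorrhizal wild type, 199 ± 49.8 in ram1 controls and 139.9 ± 5.34 in mycorrhizal ram1 (SD, n = 3).

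The 5 gene models annotated as beta-amyrin synthase ranged widely in level. Peaxi162Scf00928g00242.1 showed the largest response to the fungus of the 59 tested members. In wild type it was at 0.244, 0 and 0.0783 CPM in controls (4 reads in all) and at 74.6, 88.4 and 79.1 CPM in mycorrhizal roots (2899 reads). In ram1 it was at 0.0821, 0.0770 and 0.0742 CPM in controls (3 reads in all) and at 12.8, 18.1 and 16.1 CPM in mycorrhizal roots (471 reads). The gene was thus induced in both genotypes, with no overlap between control and mycorrhizal roots.

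This induction was 751-fold in the wild type (log2 9.41, SE 0.332, adjusted p = 1.15e-08, edgeR). The ratio over the 4 wild type control reads of Peaxi162Scf00928g00242.1 was 747, with a 95% counting interval of 291.6 to 2745, and the log2 value was 10.62 without control replicate 1 and 8.88 without control replicate 2. In ram1 the log2 value was 7.47 (SE 0.361, adjusted p = 1.33e-06), and the ratio over the 3 control reads was 196, with a 95% counting interval of 66.6 to 953. The interaction was not called (−1.94, SE 0.977, adjusted p = 0.283), with 4 and 3 control reads in the wild type and the mutant. In mycorrhizal roots the level was 5.14-fold lower in ram1 than in the wild type (log2 −2.37, SE 0.195, adjusted p = 3.71e-06). In bulk root RNA, fewer cells that express a gene and less RNA per cell cannot be told apart.

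The beta-amyrin synthase of highest RPKM, Peaxi162Scf00443g00213.1, moved the other way. It was at 359.6, 351 and 403 CPM in wild type controls and at 216, 193 and 205 CPM in mycorrhizal wild type, whereas ram1 had 369.8, 299 and 414 CPM in controls and 401, 359.9 and 386 CPM in mycorrhizal roots. The 3 mycorrhizal wild type libraries were below the other 9. Expression fell by 0.86 on the log2 scale in the wild type (SE 0.125, adjusted p = 0.000612, edgeR), and the value in ram1 was 0.08 (adjusted p = 0.689). The interaction was 0.94 (SE 0.176, adjusted p = 0.0087), and mycorrhizal ram1 was above mycorrhizal wild type by 0.90 (SE 0.125, adjusted p = 0.000162).

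A short gene model of 357 bases on the same scaffold, Peaxi162Scf00443g00029.1, also fell in the wild type, from 14.8 to 8.46 CPM (log2 −0.81, SE 0.183, adjusted p = 0.00915). It was at 22.1 and 22.3 CPM in ram1 control and mycorrhizal roots, higher than the wild type in mycorrhizal roots by 1.40 (SE 0.184, adjusted p = 0.00011). Peaxi162Scf00984g00023.1 and Peaxi162Scf00436g00122.1 stayed at group means of 1.68 to 3.13 and of 0.213 to 0.840 CPM. Peaxi162Scf00984g00023.1 turned on 1 library: it was at 0.0821 and 0.0770 CPM in ram1 control replicates 1 and 2 but at 7.79 CPM in replicate 3, and without that library it was called higher in mycorrhizal ram1 roots (log2 4.85, adjusted p = 0.0273). Summed over the 5 gene models, the beta-amyrin synthase RPKM was 227 ± 8.61 in wild type controls, 169 ± 4.11 in mycorrhizal wild type, 246 ± 38.5 in ram1 controls and 263 ± 11.4 in mycorrhizal ram1 (SD, n = 3).

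**Figure D2:**
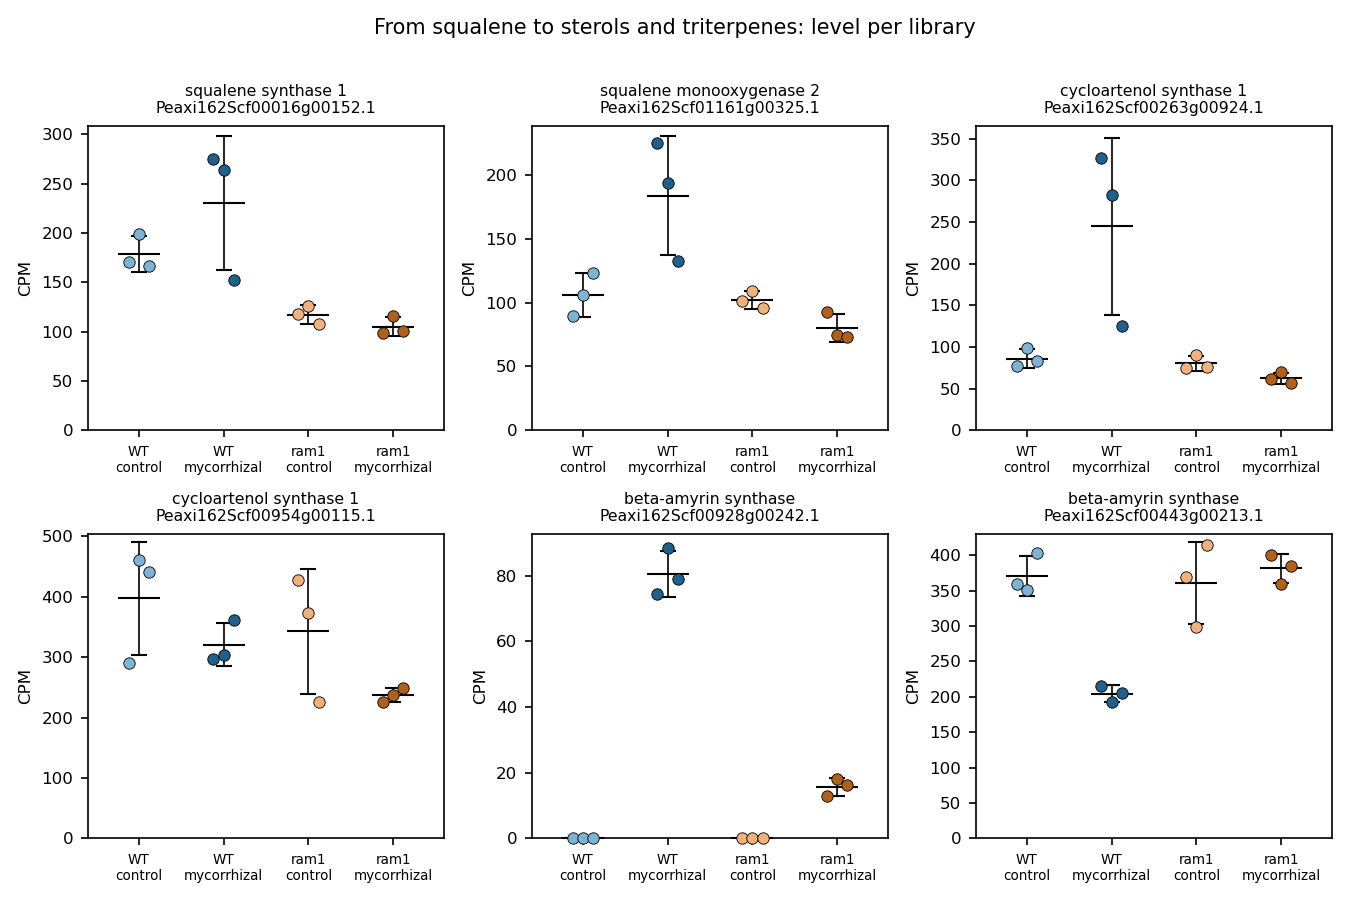
Level in CPM (y axis, from 0) of a squalene synthase, a squalene monooxygenase, 2 cycloartenol synthases and 2 beta-amyrin synthases in the 4 groups, with 1 point per library and the group mean with its SD (n = 3) in black. Peaxi162Scf00928g00242.1 goes from under 1 CPM in controls to 80.7 CPM in mycorrhizal wild type and 15.7 CPM in mycorrhizal ram1, while Peaxi162Scf00443g00213.1 is lowest in mycorrhizal wild type.

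The steps before and after these enzymes were read from lists of annotated pathway genes. Of 22 tested genes for sterol synthesis after cycloartenol, 8 rose and none fell in mycorrhizal wild type roots, and in ram1 none rose and 1 fell. Of all genes tested, 12.6% rose and 9.14% fell in the wild type, and 4.91% rose and 5.17% fell in ram1. In mycorrhizal roots 17 of the 22 were lower in ram1 and 1 was higher (25.9% and 26.7% of all genes), whereas in controls 4 were lower and 2 higher (17.5% and 18.8% of all genes). Sterol methyltransferase 1 (Peaxi162Scf00019g00016.1), which acts on cycloartenol, was at 143, 195 and 148 CPM in wild type controls and at 559.9, 490.5 and 165 CPM in mycorrhizal wild type (log2 1.32, SE 0.350, adjusted p = 0.0201). A Delta(24)-sterol reductase (Peaxi162Scf00695g00218.1) was at 78.1, 110.0 and 97.3 CPM in controls and at 681, 503 and 108 CPM in mycorrhizal wild type (log2 2.18, SE 0.530, adjusted p = 0.0132). The values of mycorrhizal replicate 3 thus lay within or near the range of the controls for both genes, as for squalene synthase. The same library was at 128.6 CPM for RAM1 and at 622 CPM for PT4. The cause of its low sterol values was not tested. The interaction was called negative for 1 of the 22 (5.17% of all genes), the 3-beta-hydroxysteroid dehydrogenase Peaxi162Scf00680g00636.1 (log2 −0.73, SE 0.169, adjusted p = 0.0226), and was not called for sterol methyltransferase 1 (adjusted p = 0.0948) or the Delta(24)-sterol reductase (adjusted p = 0.127). Without mycorrhizal wild type replicate 3 it was called negative for 9 of the 22, against 4.84% of all genes, and 11 of the 22 rose in the wild type, against 10.2%. Because replicate 3 was low in genes of this same list, leaving it out favours such calls. These counts are therefore not separate evidence.

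Upstream, in the mevalonate pathway that supplies farnesyl diphosphate, 4 of 12 tested genes rose and 1 fell in the wild type, and in ram1 none rose and 1 fell, with the shares of all genes as for the sterol list. Without the 2 libraries that stood apart, 6 of the 12 rose in ram1, against 13.1% of all genes. The HMG-CoA reductase Peaxi162Scf00861g00321.1, the committed step of this pathway, was at 82.9, 89.1 and 59.6 CPM in wild type controls and at 477, 432 and 187 CPM in mycorrhizal wild type (log2 2.24, SE 0.374, adjusted p = 0.00152). The groups did not overlap, and replicate 3 was again the lowest. Another HMG-CoA reductase, Peaxi162Scf00385g00039.1, fell in both genotypes, by 1.07 in the wild type (SE 0.143, adjusted p = 0.000344) and by 0.70 in ram1 (SE 0.142, adjusted p = 0.017).

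Downstream of beta-amyrin, cytochromes P450 of the CYP716 family oxidize triterpenes in several plants. Among 3 tested CYP716 genes, Peaxi162Scf00268g01215.1 was induced in both genotypes. It had 1 read in all wild type controls and was at 70.3, 54.1 and 62.1 CPM in mycorrhizal wild type, a ratio of 2291 with a 95% counting interval of 411 to 90517. In ram1 the ratio was 34.9 (5.78 to 1428), with 0.622, 0.566 and 1.45 CPM in mycorrhizal roots, and the interaction was not called for any of the 3 genes.

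**Figure D3:**
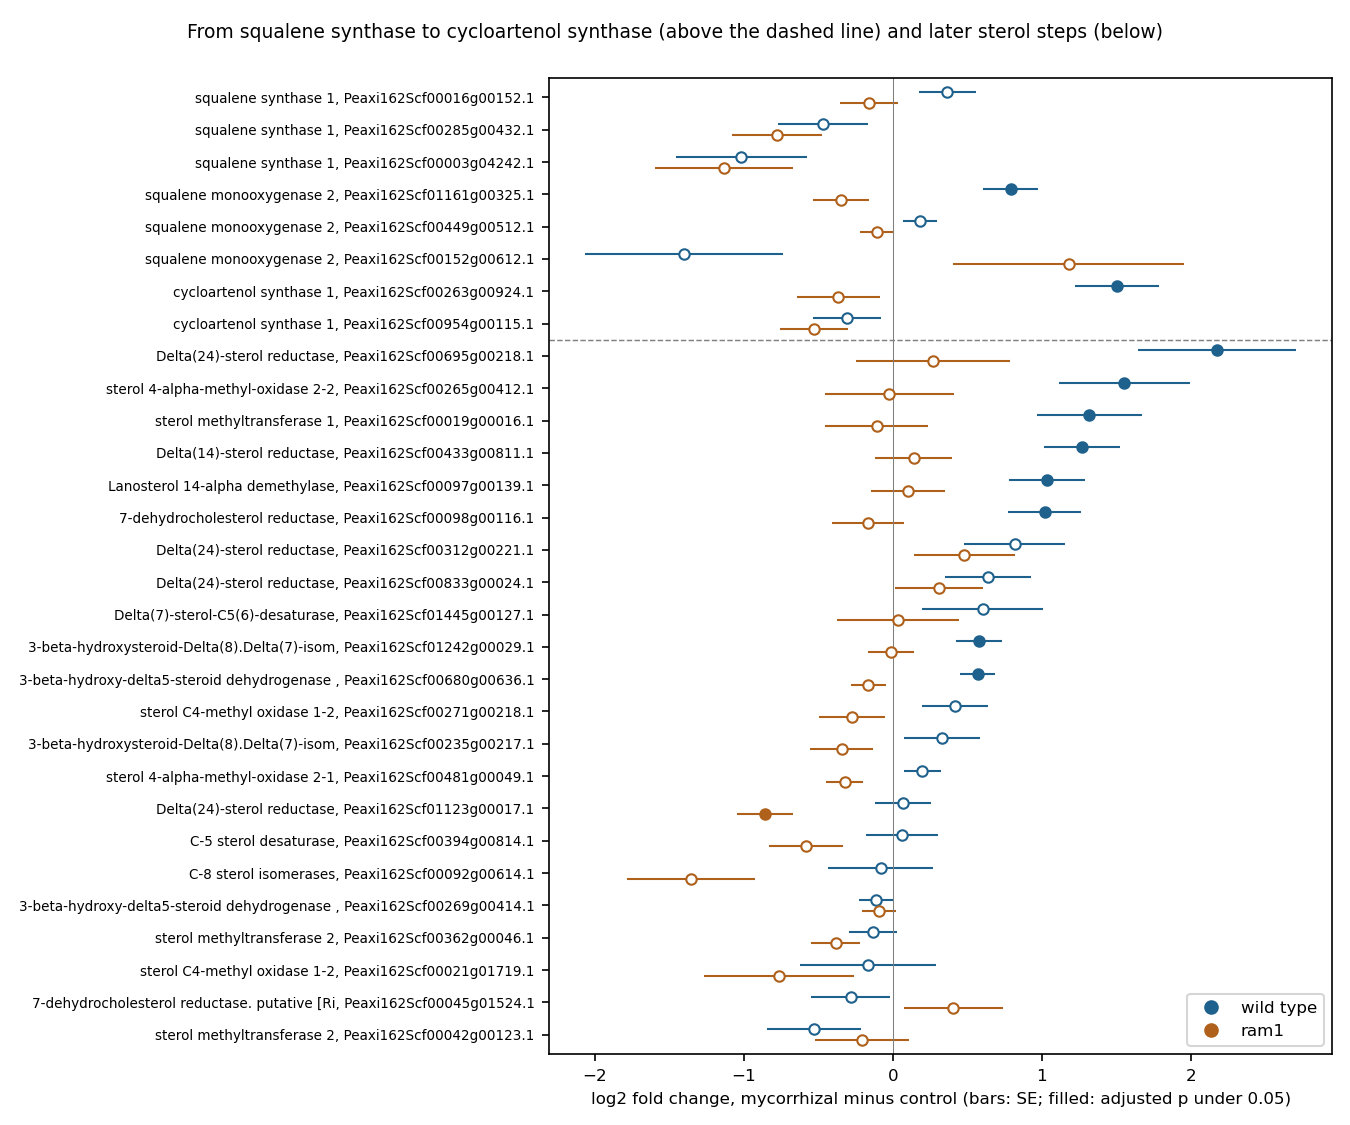
Log2 fold change (mycorrhizal minus control roots, x axis) of 8 tested squalene and cycloartenol synthesis genes (above the dashed line) and 22 later sterol genes (below it), for the wild type (blue) and ram1 (orange), with bars for the SE and filled points at an adjusted p under 0.05. Of the 22 later genes, 8 wild type points are filled on the right, whereas the 1 filled ram1 point lies on the left.

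Diterpene synthases comprised 18 tested genes, of which 1 rose and 2 fell in the wild type, and 1 rose and 3 fell in ram1 (12.6% of all genes rose and 9.14% fell in the wild type, and 4.91% and 5.17% in ram1). Without the 2 libraries that stood apart, 6 of the 18 fell in the wild type, against 11.7% of all genes. Both are ram1 libraries, so the wild type counts are the same and the spread shared over the groups differs. The gene that rose in both was Peaxi162Scf00452g00236.1, annotated as ent-kaurene synthase-like 3. It was at 7.32, 8.21 and 4.62 CPM in wild type controls, 16.5, 21.9 and 23.3 CPM in mycorrhizal wild type, 3.69, 5.62 and 3.34 CPM in ram1 controls, and 23.6, 24.9 and 23.9 CPM in mycorrhizal ram1. Control and mycorrhizal roots did not overlap in either genotype. The increase was 3.06-fold in the wild type (log2 1.62, SE 0.235, adjusted p = 0.000611, edgeR) and 5.72-fold in ram1 (log2 2.51, SE 0.245, adjusted p = 0.000136), and the interaction was not called (0.90, adjusted p = 0.118).

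Peaxi162Scf01455g00005.1, annotated as terpene synthase 04, had the largest called interaction. It was at 58.0, 45.3 and 41.7 CPM in wild type controls, 4.06, 7.21 and 5.65 CPM in mycorrhizal wild type, 14.3, 10.2 and 19.1 CPM in ram1 controls, and 11.1, 15.8 and 12.6 CPM in mycorrhizal ram1. Wild type controls were highest, mycorrhizal wild type was lowest, and the ram1 groups overlapped between them. Expression was 8.58-fold lower in mycorrhizal than in control wild type roots (log2 −3.09, SE 0.270, adjusted p = 1.2e-05, edgeR), and the value in ram1 was −0.15 (adjusted p = 0.716). The interaction was 2.94 (SE 0.366, adjusted p = 0.00086). Accordingly, ram1 was below the wild type in controls (log2 −1.73, SE 0.250, adjusted p = 0.000312) and above it in mycorrhizal roots (log2 1.21, SE 0.268, adjusted p = 0.00314), the only member called in opposite directions in these comparisons.

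An ent-kaur-16-ene synthase, Peaxi162Scf00014g02417.1, was at 23.0, 17.5 and 20.8 CPM in wild type controls and at 9.77, 6.87 and 5.27 CPM in mycorrhizal wild type, with 19.7, 12.6 and 24.3 CPM in ram1 controls and 17.4, 15.4 and 13.4 CPM in mycorrhizal ram1. It fell by 1.49 on the log2 scale in the wild type (SE 0.264, adjusted p = 0.00223) and was higher in mycorrhizal ram1 than in mycorrhizal wild type by 1.08 (SE 0.266, adjusted p = 0.00579). The interaction did not pass (1.19, adjusted p = 0.0671), but it did without the 2 libraries that stood apart (1.32, adjusted p = 0.0382).

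On scaffold 45, 3 ent-copalyl diphosphate synthase models were highest in ram1 controls. The one of highest RPKM, Peaxi162Scf00045g00916.1, was at 116, 126 and 219 CPM in wild type controls, 233, 213 and 98.1 CPM in mycorrhizal wild type, 389, 440.5 and 389.6 CPM in ram1 controls, and 212, 160.5 and 79.4 CPM in mycorrhizal ram1. The 3 ram1 controls were above the other 9 libraries, and the other groups overlapped. It was higher in ram1 than in wild type controls by 1.40 on the log2 scale (SE 0.393, adjusted p = 0.0165) and fell in mycorrhizal ram1 by 1.43 (SE 0.394, adjusted p = 0.0453). The fall was lost in 9 of 21 alternative settings, and the rise over wild type controls was lost without control replicate 1 (adjusted p = 0.0655). Peaxi162Scf00045g00824.1 and the fragment Peaxi162Scf00045g00915.1 (201 bases) fell in mycorrhizal ram1 as well, by 1.45 (SE 0.364, adjusted p = 0.0350) and 1.59 (SE 0.400, adjusted p = 0.0352). For all 3 the adjusted p was above the threshold when only the 6 ram1 libraries were fitted (0.081 for Peaxi162Scf00045g00916.1, 0.056 for Peaxi162Scf00045g00824.1 and 0.073 for Peaxi162Scf00045g00915.1). Without the 2 libraries that stood apart, the interaction was called for Peaxi162Scf00045g00916.1 (−2.03, adjusted p = 0.0422) and Peaxi162Scf00045g00915.1 (−2.31, adjusted p = 0.0226). For both genes the mycorrhizal ram1 library left out was the highest of its group, which favours a negative interaction.

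A further 2 diterpene synthases, both annotated as terpene synthase 04, were lower in ram1 with and without the fungus, and neither was called in a response to the fungus. Peaxi162Scf00009g02721.1 was at 53.7, 56.0 and 73.9 CPM in wild type controls and at 76.7, 75.1 and 67.6 CPM in mycorrhizal wild type, but at 1.89, 0.385 and 0.890 CPM in ram1 controls and at 0.700, 0.566 and 0.452 CPM in mycorrhizal ram1. No ram1 library came near the wild type range. The level was 58.1-fold lower in ram1 controls (log2 −5.86, SE 0.341, adjusted p = 4.78e-07, edgeR) and 128-fold lower in mycorrhizal ram1 (log2 −6.95, SE 0.378, adjusted p = 2.16e-07). Peaxi162Scf00045g00540.1 was at 2.22 and 2.01 CPM in the wild type groups and at 0.591 and 0.555 CPM in the ram1 groups (log2 −1.88 in controls, SE 0.409, adjusted p = 0.00425, and −1.91 in mycorrhizal roots, SE 0.437, adjusted p = 0.00392).

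**Figure D4:**
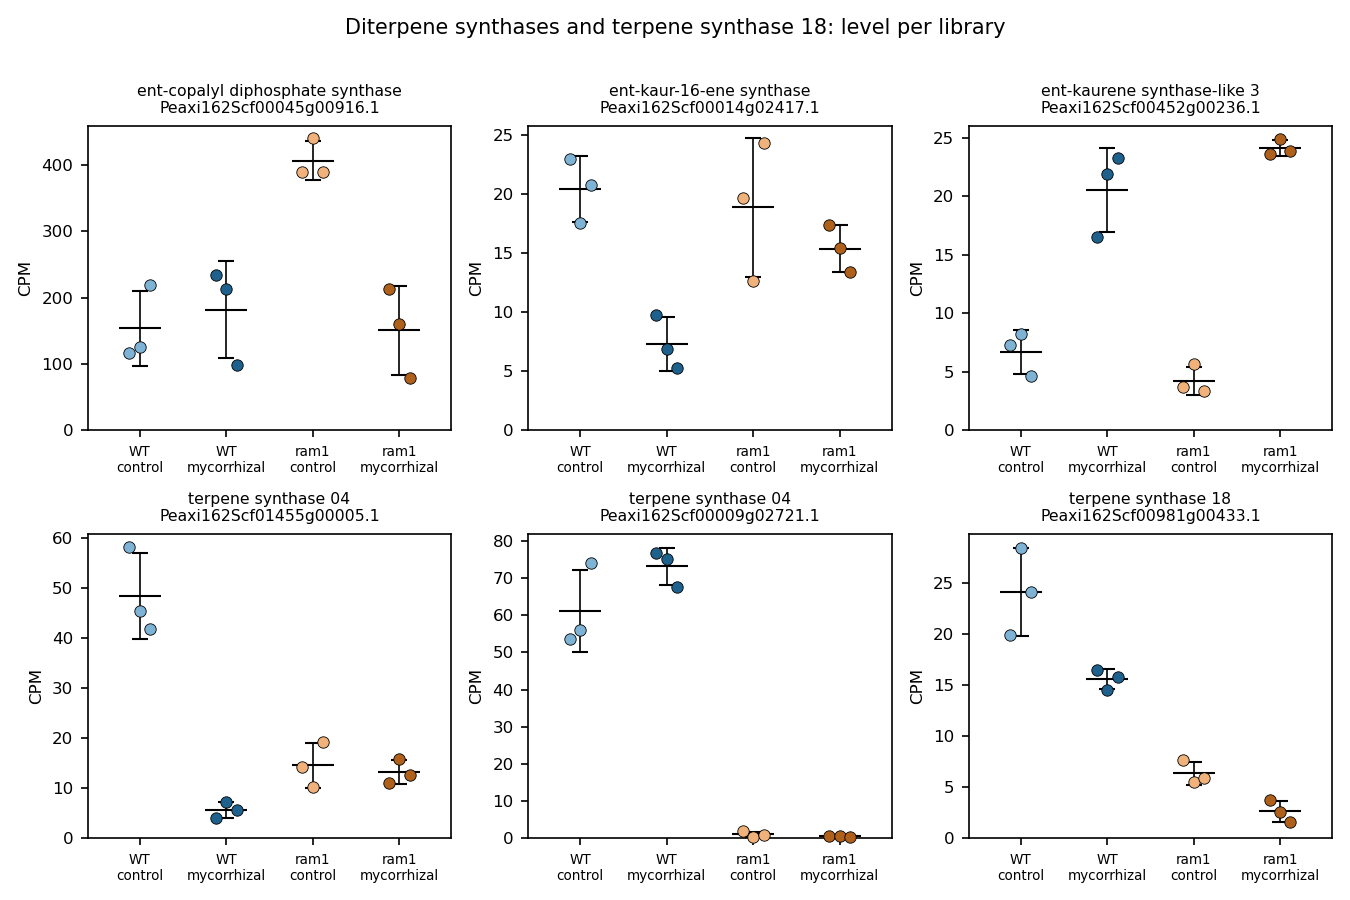
Level in CPM (y axis, from 0) of 5 diterpene synthases and terpene synthase 18 in the 4 groups, with 1 point per library and the group mean with its SD (n = 3) in black. Peaxi162Scf01455g00005.1 has a mean of 48.4 CPM in wild type controls and of 5.64 CPM in mycorrhizal wild type, and Peaxi162Scf00009g02721.1 stays at 1.05 CPM or below on average in both ram1 groups.

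The later steps of gibberellin synthesis were followed with 19 tested genes. In the wild type 10 rose and none fell (12.6% and 9.14% of all genes), in ram1 4 rose and none fell (4.91% and 5.17%), and the interaction was called negative for 3 (5.17%). In mycorrhizal roots 12 were lower and 2 higher in ram1 (25.9% and 26.7% of all genes). A gibberellin 3-oxidase (Peaxi162Scf00015g00525.1), which makes the active hormone, went from 1.30, 1.76 and 1.10 CPM to 25.3, 28.7 and 18.3 CPM in the wild type (log2 4.11, SE 0.311, adjusted p = 3.66e-06), and its interaction was −3.65 (SE 0.418, adjusted p = 0.000509). The ent-kaurenoic acid hydroxylase Peaxi162Scf00268g00310.1 had 1 read in wild type controls and a mean of 65.3 CPM in mycorrhizal wild type, a ratio of 2408 (95% counting interval 432 to 95161). In ram1 it reached 11.6 CPM, a ratio of 214 over 2 control reads (58.8 to 1774). The other 9 of the 19 were not called in the wild type response. The green tissue markers were also highest in mycorrhizal wild type roots, and their part in these values was not tested.

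Sesquiterpene synthases comprised 18 tested genes, and their response to the fungus in ram1 depended on the 2 libraries that stood apart. In all 12 libraries 1 fell in the wild type and 2 fell in ram1, and none rose (12.6% of all genes rose and 9.14% fell in the wild type, and 4.91% and 5.17% in ram1). Without ram1 control replicate 3 and mycorrhizal ram1 replicate 1, 10 of the 18 rose and 3 fell in ram1, against 13.1% and 11.7% of all genes, and the interaction was called positive for 6 and negative for 1, against 9.26% and 9.23%. That fit left 2 libraries in each ram1 group. In 10 of the 11 genes higher in mycorrhizal ram1, it left out the highest ram1 control and the lowest mycorrhizal ram1 library. For these genes it cannot decide on a rise or an interaction. In ram1 controls 8 were higher and 2 lower than in wild type controls (18.8% and 17.5% of all genes), and in mycorrhizal ram1 11 were higher and 2 lower (26.7% and 25.9%). All 11 are annotated as terpene synthase 21, as are 17 of the 18 tested sesquiterpene synthases, and 8 of the 11 were higher in controls as well. Of these 11, 5 had under 35% of their reads matching 1 gene model only, so that the copies share reads and their levels cannot be fully separated. Some of the 11, such as Peaxi162Scf00003g00116.1 and Peaxi162Scf00409g00122.1, reached a mean of 10 reads in ram1 groups only. Such genes could be called only as higher in ram1, so these counts against the shares of all genes are not evidence about the class.

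Peaxi162Scf00409g00121.1, with 92.3% unique reads, was at 7.72, 3.44 and 2.11 CPM in wild type controls, 2.21, 1.68 and 3.74 CPM in mycorrhizal wild type, 25.9, 18.8 and 86.1 CPM in ram1 controls, and 39.4, 192 and 178 CPM in mycorrhizal ram1. No ram1 library overlapped the wild type, but the ram1 libraries spread widely within both groups. The level was 9.85-fold higher in ram1 controls (log2 3.30, SE 0.764, adjusted p = 0.0060, edgeR) and 53.6-fold higher in mycorrhizal ram1 (log2 5.72, SE 0.850, adjusted p = 0.000256). The difference in controls was 2.33 without ram1 control replicate 3 (adjusted p = 0.0210) and 3.95 without wild type control replicate 1. Between mycorrhizal and control ram1 roots it was not called (log2 1.64, adjusted p = 0.133), but without ram1 control replicate 3 and mycorrhizal replicate 1 it was called (log2 3.05, adjusted p = 0.00159), as was the interaction (log2 3.83, adjusted p = 0.00359). The libraries left out were the highest ram1 control and the lowest mycorrhizal ram1 library of this gene.

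The same order of libraries recurred within the set: in 10 of the 11 genes ram1 control replicate 3 and mycorrhizal ram1 replicates 2 and 3 were above ram1 control replicates 1 and 2 and mycorrhizal replicate 1. The share of all genes with this order is not given. Since copies share reads, the 10 genes are not separate observations of it. Peaxi162Scf00357g00011.1 (23.3% unique) was at 1.06, 0.0838 and 0 CPM in wild type controls, 0.0922, 0.587 and 0.687 CPM in mycorrhizal wild type, 25.9, 14.7 and 157 CPM in ram1 controls, and 31.9, 363 and 204 CPM in mycorrhizal ram1. The log2 difference was 7.41 in controls (SE 1.44, adjusted p = 0.00213), 5.70 without ram1 control replicate 3 and 10.31 without wild type control replicate 1. It was 8.69 in mycorrhizal roots (SE 1.44, adjusted p = 0.000518). Counted on unique reads alone the values in control and mycorrhizal roots were 7.91 (adjusted p = 0.00326) and 8.91 (adjusted p = 0.000613). Peaxi162Scf00071g00319.1 (16.9% unique) and Peaxi162Scf01658g00005.1 (9.63% unique) were higher in ram1 by log2 values of 6.62 (SE 1.02) and 5.01 (SE 1.09) in controls and of 8.37 (SE 1.07) and 7.49 (SE 1.19) in mycorrhizal roots. In controls Peaxi162Scf00071g00319.1 was at 5.53 without ram1 control replicate 3 and 8.13 without wild type control replicate 1. Peaxi162Scf01658g00005.1 was at 3.26 without ram1 control replicate 3 and at 7.28 on unique reads (adjusted p = 0.0489). Without both libraries that stood apart, all 3 genes rose in ram1 upon mycorrhization, Peaxi162Scf00357g00011.1 by 3.80 (adjusted p = 0.00135), Peaxi162Scf00071g00319.1 by 2.95 (adjusted p = 0.00423) and Peaxi162Scf01658g00005.1 by 3.74 (adjusted p = 0.000889). These libraries were the highest ram1 control and the lowest mycorrhizal ram1 library of each gene, so this rise is not separate evidence.

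Some copies were close to the limit of detection in the wild type. Peaxi162Scf00003g00116.1 had no read in wild type controls and 86 in ram1 controls, which makes it at least 27.4-fold higher (floor of 3 reads over the group). Of these 86 reads, 67 came from control replicate 3, and without it the gene was at least 9.31-fold higher. In mycorrhizal roots the ratio over 2 wild type reads was 75.3 (95% counting interval 20.4 to 628). Peaxi162Scf00409g00122.1, its neighbour by number on the scaffold of Peaxi162Scf00409g00121.1, was at least 13.7-fold higher in ram1 controls (43 reads against none) and had a ratio of 28.6 in mycorrhizal roots (9.40 to 142). Control replicate 3 held 32 of the 43 reads. Without it Peaxi162Scf00409g00122.1 was at least 5.39-fold higher and its call in controls was lost (adjusted p = 0.0810), as it was without any 1 wild type control. Peaxi162Scf00258g00438.1, all of whose reads were unique, was at group means of 8.13 and 6.53 CPM in wild type control and mycorrhizal roots, against 45.8 and 27.2 CPM in ram1 (log2 2.49, SE 0.440, adjusted p = 0.00117, and 2.06, SE 0.445, adjusted p = 0.00274). Peaxi162Scf00357g00012.1 (72.2% unique), which is named here after its values were seen, was at a mean of 168 CPM in ram1 controls and 450.3 CPM in mycorrhizal ram1, against 42.0 and 36.2 CPM in the wild type (log2 3.63 in mycorrhizal roots, SE 0.978, adjusted p = 0.00935).

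Other sesquiterpene synthases were lower in ram1 or in mycorrhizal roots. Peaxi162Scf00190g01521.1 was at 3.54 and 2.55 CPM in the wild type groups and at 0.577 and 0.336 CPM in ram1 (log2 −2.61 and −2.83). Without the 2 libraries that stood apart it was also called lower in mycorrhizal than in control ram1 roots (log2 −1.72, adjusted p = 0.0487). Those were the lowest ram1 control and the highest mycorrhizal ram1 library of this gene, so this call is not separate evidence. Peaxi162Scf00286g01042.1 was at 6.58, 7.46 and 5.01 CPM in wild type controls, 11.4, 10.1 and 4.28 CPM in mycorrhizal wild type, 7.88, 5.85 and 5.05 CPM in ram1 controls, and 2.72, 2.69 and 1.63 CPM in mycorrhizal ram1. Mycorrhizal ram1 was below all other groups, and the wild type groups overlapped. It fell in ram1 by 1.42 (SE 0.374, adjusted p = 0.0399), a call lost in 6 of 21 alternative settings (adjusted p = 0.0638 with only the 6 ram1 libraries), with an interaction of −1.85 (SE 0.506, adjusted p = 0.0444) that was lost in 10 of 20 alternative settings.

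The size of the fall of Peaxi162Scf00180g00098.1 in the wild type depended on control replicate 1. It was at 81.0, 10.1 and 10.9 CPM in wild type controls, 1.84, 1.59 and 3.59 CPM in mycorrhizal wild type, 4.84, 0.924 and 3.26 CPM in ram1 controls, and 1.40, 0.708 and 1.09 CPM in mycorrhizal ram1. The wild type groups did not overlap (log2 −3.84, SE 0.857, adjusted p = 0.00836), and without control replicate 1 the gene was still called, at −2.16 (adjusted p = 0.0200). Peaxi162Scf00007g00432.1 was at 13.7, 6.86 and 12.0 CPM in ram1 controls and at 3.03, 0.849 and 0.543 CPM in mycorrhizal ram1 (log2 −2.79, SE 0.699, adjusted p = 0.0348), and the wild type value was −1.88 (adjusted p = 0.0579). The call in ram1 was lost in 6 of 21 alternative settings (adjusted p = 0.0709 with only the 6 ram1 libraries). The highest RPKM of all members belonged to Peaxi162Scf00952g00019.1, with a mean of 299.9 over the 12 libraries, and this gene had no call in any comparison. Without the 2 libraries that stood apart it was called lower in mycorrhizal ram1 than in mycorrhizal wild type (log2 −0.75, adjusted p = 0.0390). The mycorrhizal ram1 library left out was the highest of its group, which favours this call.

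**Figure D5:**
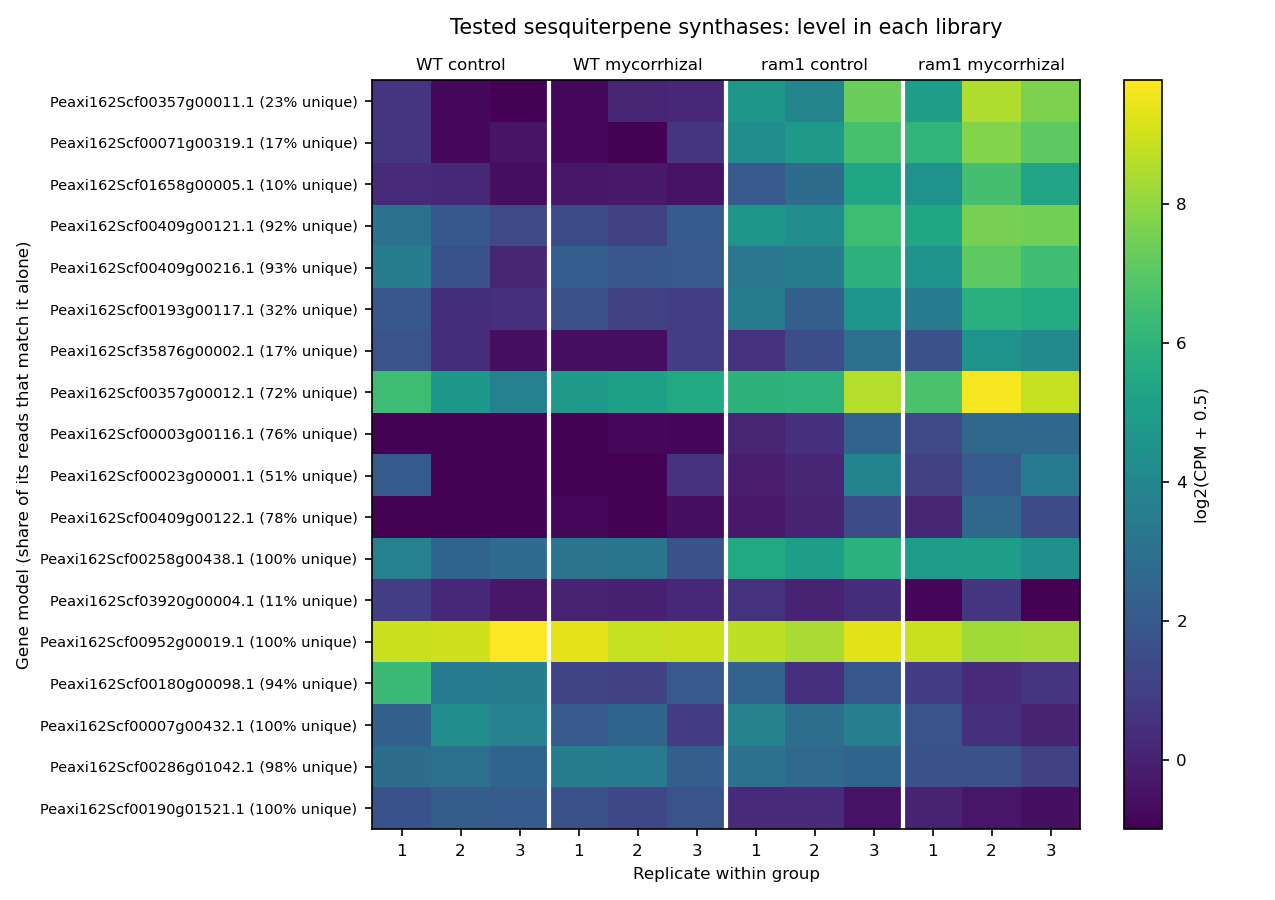
Level of the 18 tested sesquiterpene synthases (rows) in the 12 libraries (columns, by group and replicate), coloured by log2(CPM + 0.5), with the share of reads that match each gene model alone. The upper rows are bright in ram1 only, most of all in control replicate 3 and mycorrhizal replicates 2 and 3, whereas Peaxi162Scf00952g00019.1 lies at 302 to 879.5 CPM in all libraries.

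Among the 9 tested genes classed as other terpene synthases, none was called in the wild type response, and 5 were higher and 1 lower in ram1 controls (18.8% and 17.5% of all genes). Of these, Peaxi162Scf00109g00088.1 reached the test through its ram1 reads only and could be called only as higher in ram1. Peaxi162Scf00981g00433.1, annotated as terpene synthase 18, was at 19.8, 28.4 and 24 CPM in wild type controls, 16.4, 14.5 and 15.7 CPM in mycorrhizal wild type, 7.63, 5.55 and 5.86 CPM in ram1 controls, and 3.73, 2.55 and 1.63 CPM in mycorrhizal ram1. None of the 4 groups overlapped. It was lower in ram1 in controls (log2 −1.92, SE 0.235, adjusted p = 0.00010) and in mycorrhizal roots (log2 −2.54, SE 0.259, adjusted p = 1.84e-05), and it fell by 1.25 in ram1 upon mycorrhization (SE 0.263, adjusted p = 0.0198). This fall was lost in 4 of 21 alternative settings (adjusted p = 0.0941 with only the 6 ram1 libraries), whereas the response of the wild type (log2 −0.63, adjusted p = 0.0681) was called in 5, among them the fit of its 6 libraries (log2 −0.64, adjusted p = 0.0196). Peaxi162Scf00299g00637.1, annotated as terpene synthase 10, was at means of 72.5 and 75.8 CPM in wild type control and mycorrhizal roots and of 316 and 181 CPM in ram1 (log2 2.12, SE 0.322, adjusted p = 0.000431, and 1.25, SE 0.315, adjusted p = 0.00651). It was called lower in mycorrhizal than in control ram1 roots without the 2 libraries that stood apart (log2 −1.16, adjusted p = 0.0213). The mycorrhizal ram1 library left out was the highest of its group, which favours this call.

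Genes of low level completed this group. Peaxi162Scf00109g00088.1 had no read in any of the 6 wild type libraries and was at 4.43, 2.93 and 4.15 CPM in ram1 controls and 2.80, 1.56 and 1.54 CPM in mycorrhizal ram1. It was thus at least 47.2-fold higher in ram1 controls (148 reads), 45.1-fold without control replicate 3, and at least 24.7-fold higher in mycorrhizal ram1 (64 reads). Peaxi162Scf00663g00210.1 had 2 reads in wild type controls and 76 in ram1 controls, a ratio of 36.4 (95% counting interval 9.73 to 306). Peaxi162Scf00124g00812.1 was higher in ram1 controls by 1.22 (4.04 against 1.72 CPM, SE 0.239, adjusted p = 0.00226). The 1 monoterpene synthase tested, Peaxi162Scf00014g02412.1, lay between 1.60 and 3.20 CPM on average and had no call.

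Gene identifiers give the scaffold and an order number of each gene model. The 98 members lay on 63 scaffolds, and 17 scaffolds with 2 or more members held 52 of them, with at most 7 on 1 scaffold. Scaffold 45 held 7 tested diterpene synthases, which differed in their course: of neighbours by number, Peaxi162Scf00045g00916.1 was highest in ram1 controls, whereas Peaxi162Scf00045g00917.1, named after its values were seen, was at 183, 212, 185 and 166 CPM in wild type control, wild type mycorrhizal, ram1 control and ram1 mycorrhizal roots.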

How the data were processed

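Per the labels and the study's methods, the authors trimmed paired reads of root RNA and aligned them to the Petunia axillaris version 4 transcripts with CLC Genomics Workbench version 9 (length fraction 0.9, similarity 0.9, at most 10 hits per read). An intact pair counted as 2 and a broken pair as 1. The deposited tables give counts per gene model (total and unique gene reads), used for all tests, and RPKM computed by the authors, used to compare genes. Columns of the authors' own comparisons (fold changes, p-values, group means) were not used.

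Counts of the 12 libraries were joined and tested with edgeR 4.0.16 (R 4.3.3, limma 3.58.1) by the quasi-likelihood test in 1 fit of the 4 groups, with TMM scaling and a minimum mean of 10 reads in at least 1 group. CPM were computed from counts after TMM scaling. The 5 comparisons were adjusted by Benjamini-Hochberg over 22954 genes. SE is the log2 fold change divided by the square root of F. The procedure was tested on simulated data. Counting intervals (95%, exact) and floors (3 reads over a group) cover counting error only. Total counts ranged from 7152267 to 13391147 per library, which limits genes of few reads.

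Members and pathway lists were chosen with earlier results of these data known. All tested squalene enzymes and oxidosqualene cyclases were named, every other member that passed a response or the interaction, up to 8 members per direction of each genotype comparison with the smallest p, the 5 of highest RPKM, and members with no read in 1 group. Pathway genes were named after their values were seen. Classes follow the description. Spellings for ent-kaur-16-ene synthase and copal-8-ol were added after the descriptions were seen, and 3 fatty acid desaturases caught by the sterol list were left out of its counts in the text. Alternatives were DESeq2 1.42.0, other scalings and filters, unique reads, a replicate block, only the 6 libraries compared, and leaving out libraries. Sequences and coordinates beyond the scaffold were not used here.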

Additional observations from a re-analysis of the deposited data

Results flagged for a closer look

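The response to the fungus differed between the genotypes, by the interaction term of edgeR with Benjamini-Hochberg adjustment over all genes tested, for 5 members. The diterpene synthase Peaxi162Scf01455g00005.1 had an interaction of 2.94 on the log2 scale (SE 0.366, adjusted p = 0.00086). The beta-amyrin synthase Peaxi162Scf00443g00213.1 had one of 0.94 (SE 0.176, adjusted p = 0.0087). The cycloartenol synthase Peaxi162Scf00263g00924.1 had one of −1.87 (SE 0.393, adjusted p = 0.0147). These 3 passed under all 20 alternatives run for the interaction. The squalene monooxygenase Peaxi162Scf01161g00325.1 (−1.14, SE 0.264, adjusted p = 0.0232) did not pass under 6 of the 20 alternatives, and the sesquiterpene synthase Peaxi162Scf00286g01042.1 (−1.85, SE 0.506, adjusted p = 0.0444) did not pass under 10.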

How the results depend on the processing

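Of 69 calls of named members, 53 passed under every alternative run and 16 were lost under at least 1. DESeq2, the other scalings, the other filters and unique reads lost none of the 69, fitting only the 6 libraries compared lost 7, and DESeq2 gave no adjusted p for Peaxi162Scf00180g00098.1. In the wild type response, 9 members were called, against 15 with DESeq2, 14 in the fit of 6 libraries and 17 without ram1 control replicate 3 and mycorrhizal ram1 replicate 1. Without single libraries the count was 9 to 14, highest without mycorrhizal ram1 replicate 1. Leaving out ram1 libraries does not change the wild type counts, but it changes the spread that the fit shares over the groups. In the ram1 response, 8 were called, against 2 in the fit of 6 libraries and 25 (14 higher, 11 lower) without both libraries that stood apart. Without single libraries it was 2 to 16: 2 without ram1 control replicate 1, mycorrhizal ram1 replicate 2 or 3, 3 without control replicate 2, 4 without mycorrhizal wild type replicate 2, 13 without mycorrhizal ram1 replicate 1 and 16 without control replicate 3. For the interaction, 5 were called, against 10 with DESeq2 and 17 without both libraries. Without single libraries it was 3 to 10: 3 without wild type control replicate 1, mycorrhizal wild type replicate 2, ram1 control replicate 2 or mycorrhizal ram1 replicate 2 or 3, 9 without mycorrhizal wild type replicate 3 and 10 without ram1 control replicate 3. The genotype comparisons gave 19 to 29 (controls) and 29 to 32 (mycorrhizal roots) without single libraries, against 25 and 31. The share of all genes called also changed with the setting, as given above for the fit without both libraries. For the other settings it is not given, so these counts do not show a change particular to the members. The value of Peaxi162Scf00003g04242.1 for the interaction turned positive, to 0.02 without wild type control replicate 3, 0.14 without ram1 control replicate 1 or mycorrhizal ram1 replicate 3, and 0.22 without mycorrhizal ram1 replicate 2, and was −1.31 without both libraries. The value of Peaxi162Scf00984g00023.1 for the ram1 response turned positive, to 4.85 without ram1 control replicate 3, 0.29 and 0.09 without mycorrhizal ram1 replicates 1 and 2, and 5.20 without both libraries (−0.76 without mycorrhizal ram1 replicate 3), and its genotype difference in controls turned to −4.23 without ram1 control replicate 3 and −4.23 without both (2.09 without wild type control replicate 1). The cause was not tested.

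With the replicate number as a block, the counts of members called were 12, 7, 5, 27 and 32 for the wild type response, the ram1 response, the interaction and the genotype comparisons in control and mycorrhizal roots, and 1 named call was lost (Peaxi162Scf00045g00916.1 in ram1). The shares of all genes called under the block are not given. Under the block, Peaxi162Scf00984g00023.1 turned to 0.39 for the ram1 response and −0.037 for the genotype difference in controls. Same-numbered libraries did not deviate together: over 18 pairs the correlation of their deviations from the group means was −0.225 to 0.360, with 4 over 0.1.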

Other observations

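Genes for the supply of prenyl diphosphates were also measured. In the plastid MEP pathway, which feeds monoterpenes and diterpenes, 4 of 12 tested genes rose and 2 fell in mycorrhizal wild type roots, and 1 rose and none fell in ram1. Of all genes tested, 12.6% rose and 9.14% fell in the wild type, and 4.91% and 5.17% in ram1. The 1-deoxy-D-xylulose 5-phosphate synthase Peaxi162Scf00161g00086.1, whose enzyme opens this pathway, went from a mean of 30.6 to 63.0 CPM in the wild type (log2 1.04, SE 0.0918, adjusted p = 1.29e-05, edgeR) and from 42.0 to 53.1 CPM in ram1 (log2 0.34, SE 0.0910, adjusted p = 0.0428), with an interaction of −0.71 (SE 0.129, adjusted p = 0.00793). Among 10 tested genes of prenyl diphosphate synthesis, 3 rose in the wild type, and in ram1 1 rose and 1 fell. Without ram1 control replicate 3 and mycorrhizal ram1 replicate 1, 3 of the 10 rose and 2 fell in ram1, against 13.1% and 11.7% of all genes. The geranylgeranyl pyrophosphate synthase Peaxi162Scf00305g00121.1, whose product is the substrate of diterpene synthases, rose in ram1 from 79.7 to 143 CPM (log2 0.85, SE 0.167, adjusted p = 0.0158), with an interaction of 0.94 (SE 0.235, adjusted p = 0.0307).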
